A study of Mus musculus with 10 samples.

Results

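Chromatin accessibility at 9 chemokine receptor genes was followed in mouse regulatory T (Treg) cells: Cxcr3, Cxcr4, Cxcr5, Cxcr6, Ccr2, Ccr4, Ccr6, Ccr8 and Ccr9. A region of open chromatin was given to a receptor when it overlapped the gene's protein-coding span in GRCm38, or otherwise when that span was the nearest one within 100 kb. This rule uses position only, and it gave the 9 genes 71 of the 77076 regions in the count table. There were 18 regions for Cxcr4, 11 for Cxcr5, 10 each for Ccr6 and Ccr9, 6 each for Ccr2, Ccr4 and Ccr8, 3 for Cxcr3 and 1 for Cxcr6. All 71 passed the filter on low counts, 22 of them overlapped a receptor span and 49 lay outside.

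ATAC-seq, which marks open DNA with a transposase, was run on sorted Treg cells of chimeras made with mixed bone marrow, with spleen and lymph nodes as the tissue. The chimera is a host rebuilt with marrow of more than one origin, so WT and mutant cells can develop in the same animal. Central Treg (cTreg) and effector Treg (eTreg) cells were compared in each genotype, with 3 libraries per subset for WT cells and 2 per subset for FntbKO cells. FntbKO cells lack Fntb, whose product is the β subunit of the farnesyltransferase that modifies RAS family proteins and lamins. The part of Fntb that was removed, the Cre driver, the age of the mice and the markers of the sort are not given in the labels. Nothing in them says that libraries of a group came from separate animals, so the p-values below measure the spread between these libraries, which may be technical.

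Chemokine receptors are G protein-coupled receptors that turn a gradient of chemokine into directed movement, mostly through Gi proteins. Central Treg cells recirculate through lymphoid organs, while effector Treg cells carry receptors that bring them to inflamed tissue, skin, gut or B cell follicles. CXCR3 binds CXCL9, CXCL10 and CXCL11 and is known as a receptor of T-bet-positive Treg cells, CXCR6 binds CXCL16, and CCR4 and CCR8 are linked to skin and tumours.

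The stretch of DNA just before the start site is shown for 4 receptors, read from RefSeq windows of GRCm38.p6 in the direction of the gene. Cxcr3, Cxcr6 and Ccr4 are shown because their summed accessibility was called in at least 1 comparison, and Ccr8 because it holds an open region at its start and was called in none. The windows are chrX:101734148-101734397 on the minus strand for Cxcr3, chr9:123806227-123806476 on the plus strand for Cxcr6, chr9:114496545-114496794 on the minus strand for Ccr4 and chr9:120091883-120092132 on the plus strand for Ccr8. Capitals mark every match to the motifs searched.
Cxcr3: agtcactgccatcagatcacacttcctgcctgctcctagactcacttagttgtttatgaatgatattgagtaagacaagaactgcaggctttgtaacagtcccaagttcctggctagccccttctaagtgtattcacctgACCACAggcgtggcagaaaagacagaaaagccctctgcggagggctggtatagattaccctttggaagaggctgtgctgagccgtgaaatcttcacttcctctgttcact
Cxcr6: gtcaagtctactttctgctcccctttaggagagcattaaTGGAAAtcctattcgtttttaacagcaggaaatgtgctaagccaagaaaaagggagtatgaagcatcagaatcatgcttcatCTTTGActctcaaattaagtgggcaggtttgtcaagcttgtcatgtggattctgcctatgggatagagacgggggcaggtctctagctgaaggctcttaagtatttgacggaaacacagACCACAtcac
Ccr4: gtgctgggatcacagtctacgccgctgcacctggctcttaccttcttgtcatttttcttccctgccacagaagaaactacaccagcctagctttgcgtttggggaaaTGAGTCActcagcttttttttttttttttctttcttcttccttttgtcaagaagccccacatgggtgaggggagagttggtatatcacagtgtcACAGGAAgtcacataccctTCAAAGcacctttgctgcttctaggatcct
Ccr8: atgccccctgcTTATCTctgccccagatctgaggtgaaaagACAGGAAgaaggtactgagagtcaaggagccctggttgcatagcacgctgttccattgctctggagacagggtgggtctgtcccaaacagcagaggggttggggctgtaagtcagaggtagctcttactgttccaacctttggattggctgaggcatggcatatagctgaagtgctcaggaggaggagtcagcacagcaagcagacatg

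An open region overlapped each of these 4 windows, and the same held for Cxcr4 and for 1 of the 2 windows of Ccr6. RefSeq windows were found for 8 of the 9 receptors. The motifs were searched on both strands as the letters TGANTCA for AP-1, TCACACC for T-box factors, AGATAA for GATA factors, TGTGGT for RUNX, ACAGGAA for ETS, CTTTGA for TCF, TGGAAA for NFAT and GGGTGTG for KLF. Cxcr3 held a single match, to RUNX, which begins 110 bases before the start site. Cxcr6 held a RUNX match that begins 10 bases before the start site, a TCF match at 129 bases and an NFAT match at 211 bases. Ccr4 held an AP-1 match at 143 bases, an ETS match at 49 bases and a TCF match at 30 bases, and Ccr8 a GATA match at 239 bases and an ETS match at 209 bases. No matches overlapped in the 4 windows shown. Over the 250 bases before 32851 start sites, 14.0% of windows held the RUNX letters, 13.8% TCF, 18.6% NFAT, 9.99% GATA, 7.20% ETS, 6.93% KLF, 6.75% AP-1 and 3.33% the T-box letters. Among the 8 receptors with a window, 3 held GATA, 3 TCF, 3 NFAT, 2 RUNX, 2 ETS and 1 AP-1. The receptor counts are by gene and the shares by single window, so they differ in unit. Ccr6, with 2 windows, is among the receptors that held GATA, TCF and NFAT. All matches are of letters and are not shown binding sites. The windows of Cxcr3, Cxcr6 and Ccr4 had GC contents of 48.0%, 43.6% and 46.4%, below the median window at 52.4%, and that of Ccr8 had 53.6%.

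The libraries held between 5058328 and 15328775 counts in regions. The region at the start of Fntb had 29.2 to 36.9 CPM (counts scaled to library size, with TMM factors) in the 6 WT libraries and 7.48 to 13.1 in the 4 FntbKO libraries, so every FntbKO library was below every WT library. Regions were found at 5 of 5 Treg markers (Foxp3, Il2ra, Ctla4, Ikzf2, Tnfrsf18), with a summed level of 1202 to 1417 CPM over the 10 libraries. On the first principal component of log2(CPM + 1), with 34.5% of the variance, WT cTreg 2 lay at 9.95 while the other WT cTreg libraries lay at -42.1 and -30.0. On the same component FntbKO cTreg 1 lay at -114 and FntbKO cTreg 2 at -54.5, with the WT eTreg libraries between 49.9 and 96.9 and the FntbKO eTreg libraries at -0.768 and 22.4. Each call at the 9 receptors is therefore also given without these 2 cTreg libraries, WT cTreg 2 and FntbKO cTreg 1, where that changed it. The component cannot show which of the 2 FntbKO cTreg libraries is the unusual one. Leaving out any FntbKO library leaves its group with a single library. A call lost in this way cannot be told apart from loss of replication. Calls at other genes were not refitted one by one. Over all regions the calls went from 2619 to 4225 in the WT subset comparison without both libraries, from 1033 to 38 in the FntbKO one, from 433 to 43 between genotypes in cTreg and from 267 to 698 in eTreg. In bulk libraries a region that is open in fewer cells cannot be told apart from one that is less open in every cell.

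Calls at the receptors were few and fell on 4 regions: 1 upstream of Cxcr3, 1 upstream of Ccr6, 1 upstream of Cxcr4 and the start site of Cxcr6. Each call has an adjusted p under 0.05 in edgeR's quasi-likelihood test, with Benjamini-Hochberg adjustment over all 76216 tested regions. In WT cells 2 of 71 regions were called between eTreg and cTreg, both higher in eTreg, where 3.44% of all tested regions were called and 1.83% were called higher. In FntbKO cells 1 of 71 was called, higher in eTreg, against 1.36% of all regions called and 0.966% called higher. Between FntbKO and WT cTreg cells 2 of 71 were called, 1 in each direction, against 0.568% of all regions called, 0.19% higher and 0.378% lower. Between FntbKO and WT eTreg cells 0 of 71 were called by edgeR, DESeq2 or limma-voom, against 0.35% of all regions called. An unadjusted p under 0.05 was reached there by 9 of the 71 (12.7%), close to the 12.2% of all tested regions. For the interaction of genotype and subset 0 of 71 were called by any of the 3 tools, and 0.0% of all regions were called. Here 2 of the 71 (2.82%) had an unadjusted p under 0.05, as did 4.07% of all tested regions. The shares called among the receptors thus lay close to those of all regions in both subset comparisons.

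Summed over all regions of a gene and tested over 15899 genes, Cxcr3 was called higher in FntbKO eTreg than in FntbKO cTreg, and Cxcr6 and Ccr4 were called lower in FntbKO than in WT cTreg cells. These are 1 of 9 receptors against 1.86% of all genes called and 1.09% called higher, and 2 of 9 against 2.34% called and 1.42% called lower. Both comparisons use the same 2 FntbKO cTreg libraries. Between WT eTreg and WT cTreg edgeR called 0 of 9 on summed regions, against 3.11% of all genes called. DESeq2 and limma-voom called 1 each there, in both cases Cxcr3. An unadjusted p under 0.05 was found for 1 of 9 (11.1%), against 16.4% of all genes. Between FntbKO and WT eTreg 0 of 9 were called by the 3 tools, against 0.742% of all genes called. Here 4 of 9 had an unadjusted p under 0.05 (44.4%), as did 15.5% of all genes. For the interaction 0 of 9 were called by the 3 tools, with 0.0% of all genes called. An unadjusted p under 0.05 was reached there by 0 of 9, against 2.96% of all genes. The plot of log2 fold changes per gene sets the 4 comparisons side by side.

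**Figure D1:**
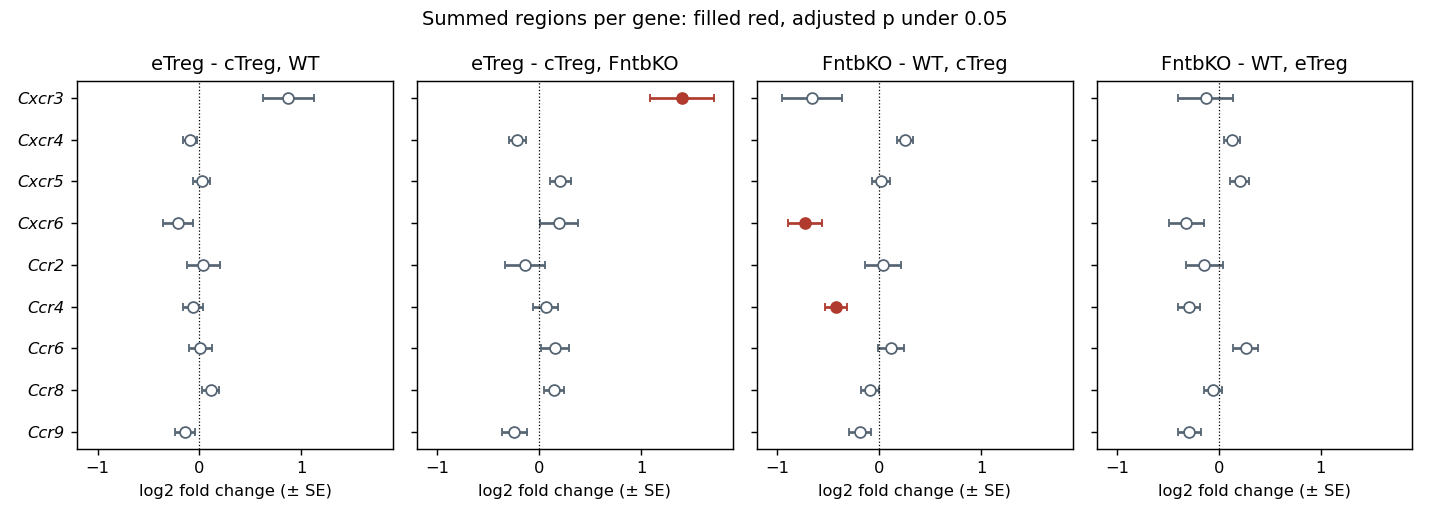
Log2 fold change of the summed regions of each receptor gene, with the SE derived from the edgeR test as bars, in 4 comparisons (panels). Filled red points have an adjusted p under 0.05. Cxcr3 stands at 0.87 and 1.40 in the subset comparisons, and Cxcr6 and Ccr4 at -0.72 and -0.42 between FntbKO and WT cTreg cells.

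Receptors were ordered by summed CPM per kb of open region, a level that corrects for the width of the regions. In WT cTreg cells Cxcr6 was highest at 53.1 ± 3.03 CPM per kb (SD, n = 3), followed by Cxcr4 at 38.2 ± 3.54, Ccr8 at 32 ± 1.80, Ccr9 at 31.7 ± 4.66 and Ccr4 at 30.6 ± 4.07. Cxcr5 followed at 21.9 ± 1.49, Ccr2 at 18.0 ± 2.34, Ccr6 at 14.0 ± 2.07 and Cxcr3 at 13.8 ± 4.21. Within this order the libraries of Ccr8, Ccr9 and Ccr4 overlapped from neighbour to neighbour, as did those of Ccr2, Ccr6 and Cxcr3. Cxcr3 was also last in FntbKO cTreg cells, at 8.23 ± 4.39 (n = 2), but took the sixth place in WT eTreg at 25.1 ± 1.29 (n = 3) and the seventh in FntbKO eTreg at 22.8 ± 3.09 (n = 2). In FntbKO cTreg cells Cxcr4 at 45.5 ± 0.483 (n = 2) stood above Cxcr6 at 32.2 ± 0.438 with no overlap, the reverse of their order in WT cTreg cells. The level per kb of a gene with 1 region, as Cxcr6 has, is that of its start site alone.

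**Figure D2:**
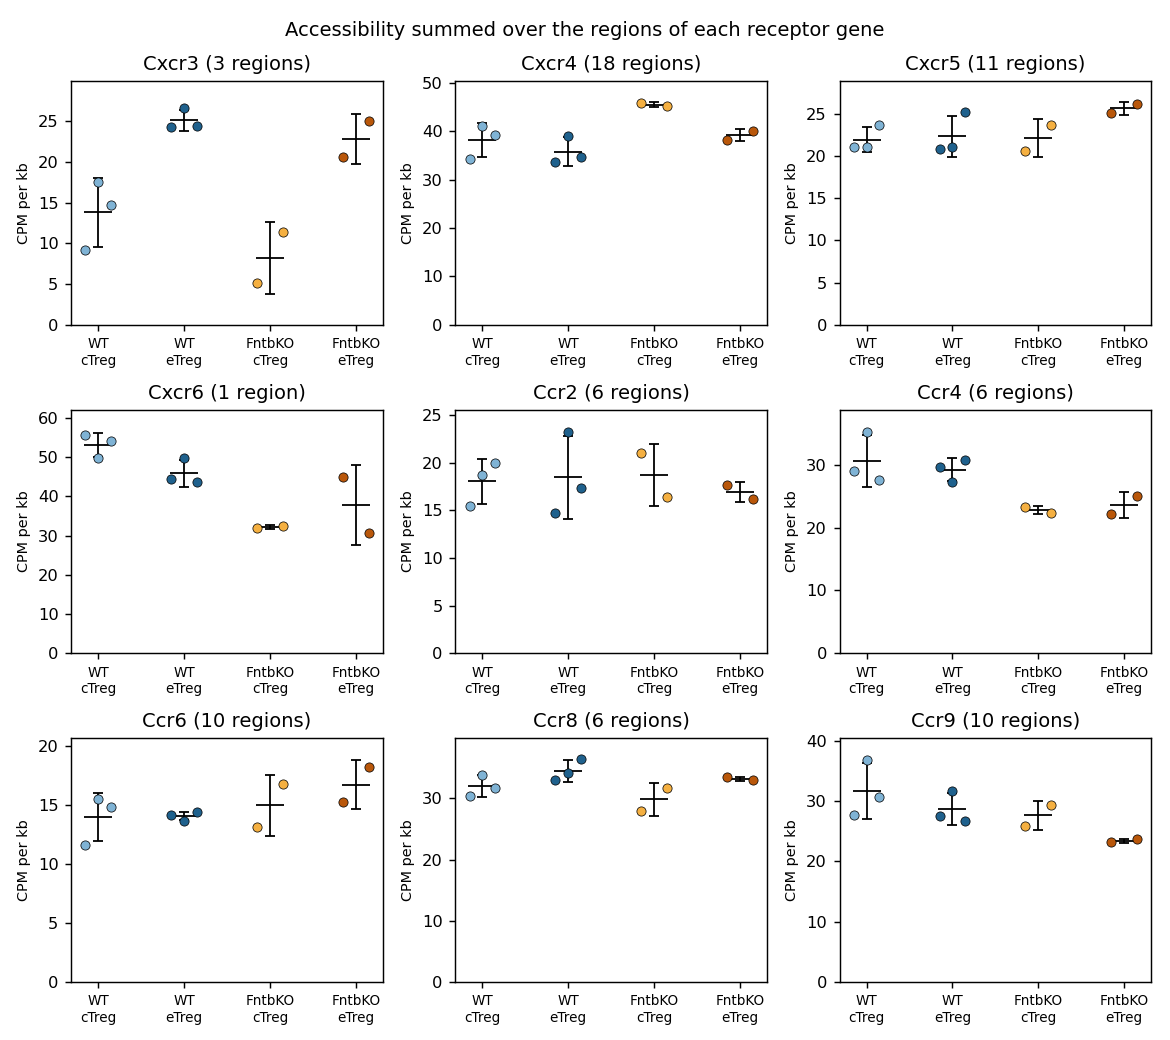
Summed CPM per kb of open region for each receptor gene (y axis, from 0) in the 4 groups (x axis); points are libraries, and lines with bars are the mean and SD. All 5 eTreg libraries of Cxcr3 lie above all 5 cTreg libraries, and both FntbKO cTreg libraries of Cxcr6 and Ccr4 lie below all WT libraries of either subset.

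Cxcr3, the receptor for interferon-induced chemokines, was the gene with the clearest difference between eTreg and cTreg cells. All 3 of its regions had a positive log2 fold in both genotypes. The region 3.04 kb upstream of its span (chrX:101737187-101737658) had 6.98, 12.9 and 9.30 CPM in WT cTreg cells and 17.3, 20.1 and 17.3 in WT eTreg cells. It had 3.56 and 7.84 CPM in FntbKO cTreg and 15.4 and 20.7 in FntbKO eTreg cells. Every eTreg library was thus above every cTreg library, and the lowest value was that of FntbKO cTreg 1. The log2 fold change of eTreg over cTreg was 0.93 in WT (SE 0.24, edgeR adjusted p = 0.0303) and 1.60 in FntbKO (SE 0.29, edgeR adjusted p = 0.00839). In WT the call was lost when WT cTreg 1, WT cTreg 3 or any 1 of the 3 WT eTreg libraries was left out, with an adjusted p of up to 0.142. In FntbKO it was lost without FntbKO cTreg 1 (log2 fold 1.22), without FntbKO eTreg 2 (1.36), and without WT cTreg 2 and FntbKO cTreg 1 together (1.22).

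At the Cxcr3 start site the region (chrX:101733767-101734306) overlaps the window printed above in part. Its levels were lower and pointed the same way. They were 4.47, 6.37 and 6.23 CPM in WT cTreg, 9.88, 10.1 and 8.99 in WT eTreg, 2.19 and 5.45 in FntbKO cTreg and 9.22 and 9.55 in FntbKO eTreg. Here too no cTreg library reached an eTreg library. The log2 fold was 0.76 in WT (SE 0.27, edgeR adjusted p = 0.112) and 1.21 in FntbKO (SE 0.33, edgeR adjusted p = 0.0575), so neither was called. Summed over its 3 regions Cxcr3 rose by a log2 fold of 1.40 in FntbKO eTreg (SE 0.31, edgeR adjusted p = 0.0447) and stood at 0.87 in WT eTreg (SE 0.25, edgeR adjusted p = 0.0941). The FntbKO call on the sum was lost with total counts as library size, with only the 2 groups in the fit and when WT cTreg 2 and FntbKO cTreg 1 were both left out. It was kept when WT cTreg 1, WT cTreg 2 or FntbKO cTreg 2 was left out and lost without any 1 of the other 7 libraries, with log2 folds from 1.02 to 2.16. The difference between the genotypes in this subset change was 0.53 (SE 0.40, edgeR adjusted p = 1.0) on the sum and was not called. Marker regions of myeloid cells also had a higher summed level in eTreg than in cTreg cells in each genotype. In WT edgeR called 4 of 21 of them higher (19.0%, against 3.44% of all regions called). In FntbKO it called 0 of 21, against 1.36%. Over the 21 regions of 4 of the 6 markers (Itgam, Cebpa, Spi1, Cd68), the summed level was 84.1 to 109 CPM in WT cTreg, 127 to 137 in WT eTreg, 76.3 to 81.5 in FntbKO cTreg and 98.1 to 98.4 in FntbKO eTreg cells. Csf1r and Lyz2 had no region, and the part of these markers in the Cxcr3 result was not tested.

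**Figure D3:**
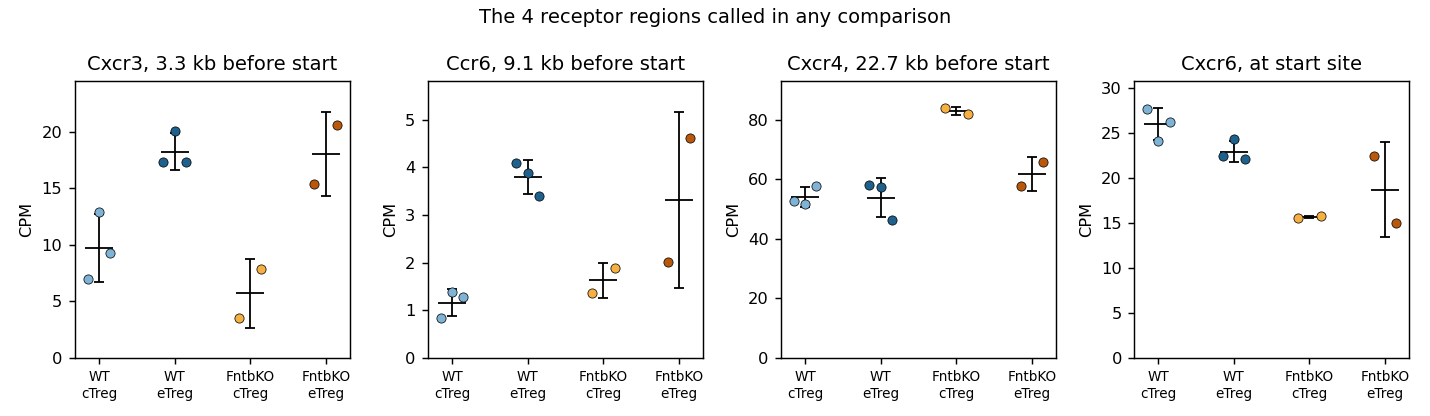
CPM (y axis, from 0) of the 4 receptor regions called in at least 1 comparison, by group (x axis); points are libraries, and lines with bars are the mean and SD. The Cxcr3 and Ccr6 regions are highest in eTreg, the Cxcr4 region is at 81.9 and 83.8 CPM in FntbKO cTreg, and the Cxcr6 region is at 15.6 and 15.8 CPM there.

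Cxcr6, a receptor for CXCL16 that marks tissue-resident T cells, had its only region at its start site (chr9:123806232-123806704), and that region also lies inside the span of Fyco1. It had 27.6, 24.1 and 26.2 CPM in WT cTreg and 15.6 and 15.8 in FntbKO cTreg cells. The eTreg values were 22.4, 24.3 and 22.1 CPM in WT and 22.4 and 15 in FntbKO. Both FntbKO cTreg libraries lay far below all 3 WT cTreg libraries, while the FntbKO eTreg libraries were split, with 1 at the WT level. Accessibility fell by 0.73 on the log2 scale in FntbKO cTreg (SE 0.17, edgeR adjusted p = 0.0442). In eTreg the log2 fold was -0.33 (SE 0.18, edgeR adjusted p = 0.458), and the interaction of 0.40 (SE 0.24, edgeR adjusted p = 1.0) was not called. The cTreg call was close to the threshold: it was kept only without FntbKO eTreg 1 or FntbKO eTreg 2, and lost without any 1 of the other 8 libraries, with log2 folds from -0.78 to -0.68 and an adjusted p of up to 0.370. On the gene table, where the same region was adjusted over 15899 genes, the log2 fold was -0.72 (SE 0.17, edgeR adjusted p = 0.0247). That call was lost without WT cTreg 3, FntbKO cTreg 1 or FntbKO cTreg 2, and without WT cTreg 2 and FntbKO cTreg 1 together, with an adjusted p of up to 0.220 over single libraries.

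Ccr4, the receptor for CCL17 and CCL22, differed between the genotypes by a smaller amount spread over its 6 regions. Its summed level was 61.6, 74.9 and 58.7 CPM in WT cTreg and 49.5 and 47.4 in FntbKO cTreg cells, and 63.2, 57.8 and 65.4 in WT eTreg and 47.1 and 53.4 in FntbKO eTreg cells. All 4 FntbKO libraries lay below all 6 WT libraries. The sum fell by 0.42 on the log2 scale in FntbKO cTreg (SE 0.11, edgeR adjusted p = 0.0444), and the log2 fold in eTreg was -0.29 (SE 0.11, edgeR adjusted p = 0.199). The cTreg call was kept when leaving out WT cTreg 1 or 3 or WT eTreg 2, and was lost without any 1 of the other 7 libraries, without WT cTreg 2 and FntbKO cTreg 1 together and with only the 2 groups in the fit. Over single omissions the log2 fold ran from -0.49 to -0.31, with an adjusted p of up to 0.243. None of the 6 regions was called by itself, the smallest edgeR adjusted p in cTreg being 0.178, and all 6 had a negative log2 fold in cTreg and 5 of 6 in eTreg. The highest was the start site (chr9:114496407-114496875, mean 32.3 CPM), with 34.8, 39.6 and 35.7 CPM in WT cTreg, 37.5, 29.6 and 34.1 in WT eTreg, 30.4 and 28.3 in FntbKO cTreg and 25.0 and 28.3 in FntbKO eTreg. Its log2 fold of FntbKO over WT was -0.32 in each subset (SE 0.14 in both, edgeR adjusted p = 0.316 in cTreg and 0.345 in eTreg). The region with the smallest unadjusted p (chr9:114507425-114507793) was 1.95 kb upstream of the gene's span, and farther from the start site given here, which lies inside the span. It had 8.52, 14.5 and 8.98 CPM in WT cTreg and 6.43 and 5.58 in FntbKO cTreg cells.

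Marker regions of B cells and of myeloid cells also had a lower summed level in FntbKO than in WT libraries of the same subset. Between the genotypes edgeR called 0 of 14 B cell and 0 of 21 myeloid marker regions in either subset. An unadjusted p under 0.05 was found for 3 and 5 of these in cTreg, and for 1 and 5 in eTreg. Of all tested regions 12.4% in cTreg and 12.2% in eTreg had such a p. The 14 regions of 3 of 6 B cell markers (Cd79a, Pax5, Ebf1) summed to 61.7 to 73.1 CPM in WT cTreg and 49.0 to 51.0 in FntbKO cTreg, and to 67.3 to 75.0 in WT eTreg and 54.9 to 63.1 in FntbKO eTreg cells. The defining markers Cd79b and Ms4a1 were among those with no region. The part of these markers in the Cxcr6 and Ccr4 results was not tested.

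The neighbourhood of Cxcr6 on chromosome 9 holds a run of receptor genes, from Ccr9 through Cxcr6, Ccr1 and Ccr3 to Ccr2. Between the first Ccr9 region and the last Ccr2 region lie 37 regions over 361 kb, of which 36 were tested. In FntbKO against WT cTreg cells 3 of these were called and all 3 were lower, the Cxcr6 start site being 1 of them, where 0.568% of all tested regions were called and 0.378% were lower. Both others were named after their values were seen and were not refitted under the alternatives. Downstream of Cxcr6, a region inside Fyco1 (chr9:123814194-123814855) had 20.8 ± 4.83 CPM in WT cTreg (SD, n = 3) and 10.7 ± 1.20 in FntbKO cTreg (n = 2), a log2 fold of -0.93 (SE 0.20, edgeR adjusted p = 0.0238). Nearest to Ccr1, a receptor of CCL3 and CCL5, a region (chr9:123936532-123937010) had 29.4 ± 1.76 CPM in WT cTreg and 15.7 ± 5.15 in FntbKO cTreg, a log2 fold of -0.87 (SE 0.18, edgeR adjusted p = 0.0183). Of the 36 tested regions 26 had a negative log2 fold in cTreg and 28 in eTreg, where 50.7% and 50.1% of all tested regions did. These counts are only a description, since the stretch was taken around the Cxcr6 region already called. Its regions also share the same libraries and are not independent. In FntbKO cells, where 1.36% of all regions were called, 2 regions nearest to Ccr1 were called higher in eTreg than in cTreg, with log2 folds of 1.24 (SE 0.24, edgeR adjusted p = 0.00993) and 0.94 (SE 0.19, edgeR adjusted p = 0.0143). The second of these is the region that was lower in FntbKO cTreg cells.

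Ccr2, the receptor for CCL2, is best known from monocytes and is also carried by effector Treg cells. Its highest region, 32.9 kb upstream (chr9:124068337-124069019, mean 28.9 CPM), was not called in any comparison. The region 5.61 kb downstream (chr9:124114746-124115091), which had the smallest unadjusted p, held 0, 1.03 and 1.9 CPM in WT cTreg and 3.13, 9.46 and 5.77 in WT eTreg. It held 0.410 and 0.908 CPM in FntbKO cTreg and 1.20 and 4.13 in FntbKO eTreg cells. The WT groups did not overlap, but the values rest on 24 counts in all WT cTreg libraries, 155 in WT eTreg, 17 in FntbKO cTreg and 48 in FntbKO eTreg. The log2 fold was 2.56 in WT (SE 0.68, edgeR adjusted p = 0.0514) and 1.98 in FntbKO (SE 0.86, edgeR adjusted p = 0.288), neither of them called. In WT it passed with halved counts, with only the 2 groups in the fit and without WT eTreg 1, FntbKO eTreg 1 or FntbKO eTreg 2, with an adjusted p from 0.0236 to 0.161 over the alternatives without a block. A region inside the gene (chr9:124103236-124103644), chosen after its values were seen, had a log2 fold of 1.16 in WT (SE 0.35, edgeR adjusted p = 0.0597) and 1.19 in FntbKO (SE 0.46, edgeR adjusted p = 0.201). The 6 regions did not move together: the sum had a log2 fold of 0.04 in WT (SE 0.16, edgeR adjusted p = 0.942), with 3 positive and 3 negative regions. The myeloid marker levels given with Cxcr3 apply here too, and their part in the Ccr2 values was not tested.

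Ccr6, the receptor for CCL20 on Th17-like and effector Treg cells, was called at 1 of its 10 regions. It lies 8975 bp upstream of the span (chr17:8226767-8227066) and held 0.838, 1.38 and 1.27 CPM in WT cTreg against 4.10, 3.88 and 3.39 in WT eTreg cells. In FntbKO it held 1.37 and 1.88 CPM in cTreg and 2.00 and 4.62 in eTreg cells. The eTreg libraries lay above the cTreg libraries in each genotype, with FntbKO eTreg 1 only just above FntbKO cTreg 2. The log2 fold was 1.70 in WT (SE 0.43, edgeR adjusted p = 0.0278) and 1.05 in FntbKO (SE 0.49, edgeR adjusted p = 0.296). The WT call rests on 26 counts in cTreg and 93 in eTreg, was lost in limma-voom, and was lost without WT cTreg 1, WT cTreg 3 or any 1 of the WT eTreg libraries, with an adjusted p of up to 0.113. Its highest region, 2.03 kb upstream (chr17:8233115-8234015, mean 14.5 CPM), held 9.77 to 14.4 CPM in WT cTreg, 12.7 to 14.3 in WT eTreg, 14.1 to 19.1 in FntbKO cTreg and 15 to 20.3 in FntbKO eTreg, and was not called. The region at the start site (chr17:8242283-8242669) ranged from 4.58 to 8.30 CPM over the 10 libraries with overlap between all groups.

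**Figure D4:**
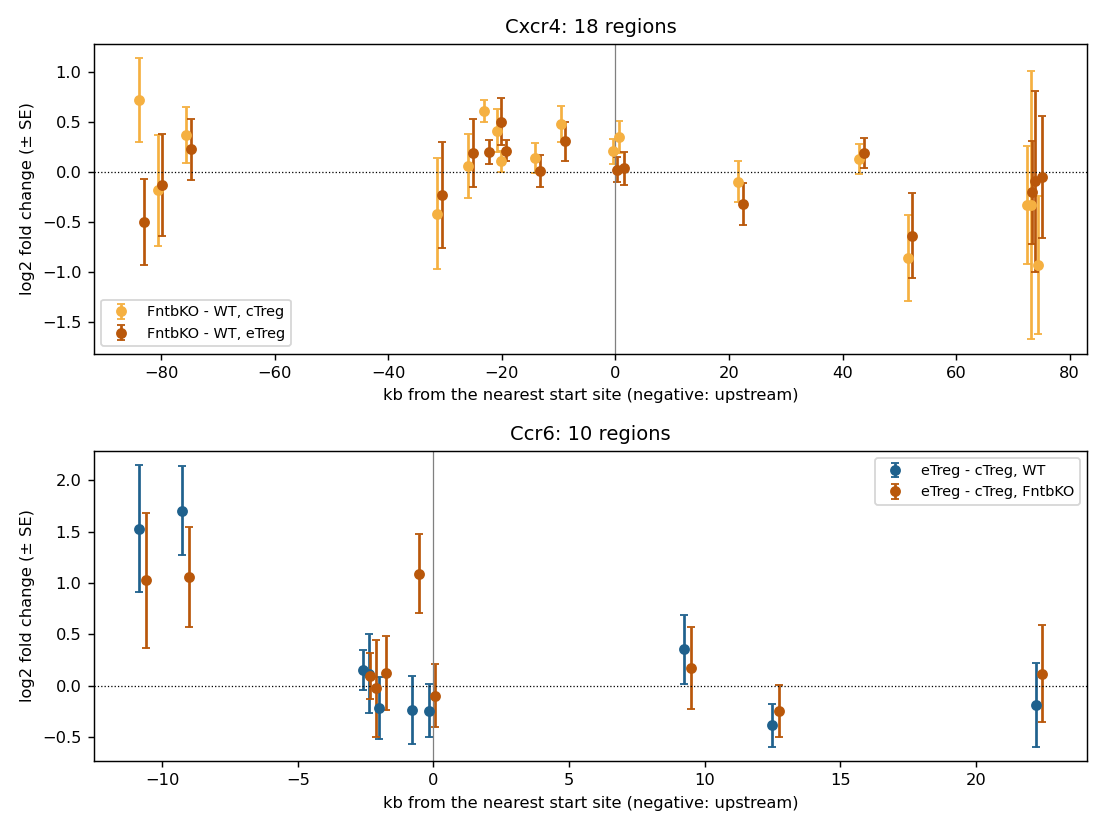
Log2 fold change with SE (y axis) of the regions of Cxcr4 (top, FntbKO over WT in each subset) and Ccr6 (bottom, eTreg over cTreg in each genotype) against the distance in kb from the nearest start site, with paired points set slightly apart for sight. At the called Cxcr4 region the cTreg point stands at 0.61, and the Ccr6 point at 1.70 is the region called in WT.

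Cxcr4, the receptor for CXCL12 that holds cells in bone marrow and lymphoid tissue, had the most regions and the highest single level of the 9 genes. The region 22.5 kb upstream (chr1:128614750-128615241) held 52.8, 51.6 and 57.7 CPM in WT cTreg and 83.8 and 81.9 in FntbKO cTreg cells. The eTreg values were 58.1, 57.3 and 46.2 CPM in WT and 57.7 and 65.9 in FntbKO. Both FntbKO cTreg libraries stood above all other libraries, and the eTreg groups overlapped. Accessibility rose by a log2 fold of 0.61 in FntbKO cTreg (SE 0.11, edgeR adjusted p = 0.00731), against 0.20 in eTreg (SE 0.12, edgeR adjusted p = 0.507). The interaction was -0.41 (SE 0.16, edgeR adjusted p = 1.0) and was not called. The cTreg call was kept without any 1 of 9 libraries, with log2 folds from 0.58 to 0.67, and was lost without FntbKO cTreg 1 (edgeR adjusted p = 0.135) and without that library and WT cTreg 2 together. The highest region, 19.5 kb upstream (chr1:128611753-128612241, mean 72.2 CPM), held 72.5, 74.2 and 72.2 CPM in WT cTreg, 60.6, 67.8 and 66.2 in WT eTreg, 80.0 and 77.2 in FntbKO cTreg and 80.5 and 70.7 in FntbKO eTreg. It was not called. Neither was the start site (chr1:128591982-128592806), with 30.2 to 33.2 CPM in WT cTreg and 35.8 and 37.5 in FntbKO cTreg. Summed over 18 regions Cxcr4 had 279.8, 336 and 320.1 CPM in WT cTreg and 375 and 369 in FntbKO cTreg, which do not overlap, with a log2 fold of 0.26 (SE 0.08, edgeR adjusted p = 0.0778). Of the 18 regions 11 had a positive log2 fold in cTreg and 10 in eTreg. The B cell and myeloid marker levels given above differ between these groups too, and their part in the Cxcr4 result was not tested.

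Neither Cxcr5, Ccr8 nor Ccr9 had a called region. Cxcr5, which guides follicular Treg cells to CXCL13 in B cell follicles, had its highest region 6.58 kb outside its span (chr9:44533019-44533555), with 35.8 to 43.9 CPM in WT cTreg, 32.8 to 37.8 in WT eTreg, 39.8 and 42.9 in FntbKO cTreg and 39.9 and 47.3 in FntbKO eTreg. The region with its smallest unadjusted p (chr9:44517358-44517971) held 13.8, 9.98 and 14.2 CPM in WT cTreg, 7.71, 9.56 and 9.84 in WT eTreg, 13.8 and 12.8 in FntbKO cTreg and 14.2 and 13.1 in FntbKO eTreg. WT eTreg was the low group, with all 3 libraries below every other library. Its log2 fold of FntbKO over WT was 0.59 in eTreg (SE 0.22, edgeR adjusted p = 0.263) and 0.06 in cTreg (SE 0.21, edgeR adjusted p = 0.942).

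Ccr8, a receptor of CCL1 carried by Treg cells of tumours and skin, held its highest level at its start. This region (chr9:120091800-120092269), which covers the window shown above, held 26.4, 31.0 and 28.9 CPM in WT cTreg, 32.3, 28.0 and 43.1 in WT eTreg, 21.9 and 25.1 in FntbKO cTreg and 36.1 and 28.1 in FntbKO eTreg. The WT groups overlapped, while both FntbKO eTreg libraries lay above both FntbKO cTreg libraries, which were the lowest 2 of all. The log2 fold of eTreg over cTreg was 0.25 in WT (SE 0.15, edgeR adjusted p = 0.386) and 0.42 in FntbKO (SE 0.18, edgeR adjusted p = 0.247). Summed over 6 regions Ccr8 ran from 80.9 to 90.5 CPM in WT cTreg, 87.9 to 97.3 in WT eTreg, 74.7 to 84.8 in FntbKO cTreg and 87.9 to 89.3 in FntbKO eTreg. The FntbKO groups did not overlap on the sum either, with a log2 fold of 0.15 (SE 0.10, edgeR adjusted p = 0.522). With 2 libraries each, FntbKO eTreg and cTreg did not overlap in 48.6% of all tested regions.

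Ccr9, the receptor for CCL25 that brings T cells to the small intestine, had its highest region 12.3 kb upstream (chr9:123754323-123754862), with 48.3, 54.4 and 49.4 CPM in WT cTreg, 51.3, 52.0 and 46.7 in WT eTreg, 44.6 and 45.8 in FntbKO cTreg and 40.9 and 40.2 in FntbKO eTreg. Every FntbKO library was below every WT library, with log2 folds of -0.16 in cTreg (SE 0.11, edgeR adjusted p = 0.586) and -0.31 in eTreg (SE 0.12, edgeR adjusted p = 0.267), neither called. A weak region inside the gene (chr9:123769758-123769922) held 1.54, 1.89 and 2.22 CPM in WT cTreg, 0.843, 0.996 and 0.509 in WT eTreg, 1.91 and 2.01 in FntbKO cTreg and 0.401 and 0.197 in FntbKO eTreg. All eTreg libraries were below all cTreg libraries, but the FntbKO eTreg value rests on 4 counts, and the log2 fold of -2.80 (SE 0.81, edgeR adjusted p = 0.0736) was not called. In WT the log2 fold was -1.21 (SE 0.56, edgeR adjusted p = 0.242). Of the 10 Ccr9 regions 8 were negative in the WT subset comparison and 9 in the FntbKO one.

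Across the 71 regions, many more had groups that did not overlap than were called, as in the whole table. Between eTreg and cTreg the groups did not overlap in 20 regions in WT (28.2%, against 21.9% of all tested regions) and in 42 in FntbKO (59.2% against 48.6%). Between the genotypes they did not overlap in 25 regions in cTreg (35.2% against 29.7%) and in 21 in eTreg (29.6% against 31.1%). The median log2 fold over the receptor regions was -0.00 in the WT subset comparison, 0.08 in the FntbKO one, -0.10 between genotypes in cTreg and -0.04 in eTreg. Over all tested regions the medians were -0.01, -0.00, -0.01 and -0.00 in that order. The 29 receptor regions with a mean under 5 CPM had a median absolute log2 fold of 0.52 in the WT and 0.70 in the FntbKO subset comparison, and the 42 regions at or above that level 0.25 and 0.28.

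The subset change of a receptor region was mostly of the same sign in both genotypes, for 54 of 71 regions (76.1%), where 67.9% of all tested regions shared their sign. These 2 comparisons use separate libraries, and Pearson's r of the log2 folds was 0.81 across the 71 regions and 0.51 across all regions. It is given as a description, since regions of a gene share libraries and are not independent. The widest folds, which weigh most in r, lay in receptor regions with a mean under 5 CPM. These ran from -1.21 to 2.56 in WT and from -2.80 to 2.52 in FntbKO. At 5 CPM or more the folds ran from -0.51 to 0.93 and from -0.86 to 1.60. The genotype change was of the same sign in cTreg and eTreg for 55 of 71 regions (77.5%, against 64.7% of all), with an r of 0.57 against 0.38. Cxcr3 had 3 of 3 regions on the positive side in both genotypes and Ccr9 the most negative value in both.

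Genes with a pattern most like that of a called receptor were sought by the root mean square difference of centred log2-CPM of summed regions over the 10 libraries, among 15899 genes. Among the nearest to Cxcr3 was Mmp19 (0.19), where the median gene was at 0.74. Nearest to Cxcr6 were Osbpl10 (0.12) and Lgi1 (0.14), with the median gene at 0.35. Nearest to Ccr4 were Klhdc4 (0.06) and Tmem121 (0.06), with the median gene at 0.27. Mmp19 had 3.46 ± 1.18 CPM in WT cTreg and 6.90 ± 1.58 in WT eTreg (SD, n = 3 each), and its log2 folds of 0.99 and 1.26 in WT and FntbKO had edgeR adjusted p-values of 0.139 and 0.157.

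Other receptors and adhesion molecules of lymphocyte traffic were counted as a list of 21 genes, of which 18 had a region and 165 regions were tested. In WT eTreg 2 regions were called higher and 11 lower than in cTreg (7.88% of the list's regions, with a median log2 fold of -0.11), against 3.44% of all regions. Both higher regions lay at S1pr1, which serves exit from lymph nodes, with log2 folds of 1.04 (SE 0.24, edgeR adjusted p = 0.0168) and 0.49 (SE 0.13, edgeR adjusted p = 0.0300). The lower ones included 3 others at S1pr1 and 2 at Ccr7, which serves entry. In FntbKO 5 were called higher, at Ccr1, Gpr15 and Gpr183, and 3 lower, S1pr1 and Itga4 among them (4.85%, against 1.36% of all regions). Between the genotypes 1 region, at Ccr1, was called lower in FntbKO cTreg (0.606%, against 0.568% of all) and 2, both at Ccr7, were called higher in FntbKO eTreg (1.21%, against 0.35%). The Ccr7 region in the gene (chr11:99154895-99155501) had 32.1 ± 3.42 CPM in WT eTreg and 50.8 ± 2.45 in FntbKO eTreg, a log2 fold of 0.66 (SE 0.12, edgeR adjusted p = 0.0112). For the interaction edgeR called 0 of these 165 regions, with 14 at an unadjusted p under 0.05, where 4.07% of all tested regions had one. Among chemokine ligands, 10 of 15 genes had a region and 28 regions were tested. In WT eTreg 2 were called higher (7.14%, against 3.44% of all regions), at Ccl5 with a log2 fold of 2.12 (SE 0.38, edgeR adjusted p = 0.00288) and at Ccl1, the ligand of CCR8, with 1.15 (SE 0.27, edgeR adjusted p = 0.0195). In the other comparisons edgeR called 0 of the 28 ligand regions. An unadjusted p under 0.05 was found for 6 in the FntbKO subset comparison, 6 between genotypes in cTreg, 4 in eTreg and 0 for the interaction. The shares of all tested regions with such a p were 15.3%, 12.4%, 12.2% and 4.07% in that order.

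Genes of receptor signalling and desensitisation had regions at 15 of 15 members, 158 in all. In WT eTreg 3 were called higher, at Dock2, Ptk2b and Rgs1, and 3 lower, at Rgs1 and Rgs2 (3.80%, close to the 3.44% of all regions). DOCK2 activates RAC behind chemokine receptors, and its region (chr11:34506230-34506904) had a log2 fold of 1.04 in WT (SE 0.17, edgeR adjusted p = 0.00165) and 1.12 in FntbKO (SE 0.21, edgeR adjusted p = 0.00839). In FntbKO eTreg 2 were called higher (1.27%, close to the 1.36% of all regions), at Dock2 and Ptk2b. Between the genotypes edgeR called 0 of the 158 in either subset, with 13 and 20 at an unadjusted p under 0.05 in cTreg and eTreg. It called 0 for the interaction, with 6 at such a p. Among all tested regions 12.4%, 12.2% and 4.07% had such a p in that order. Transcription factors linked to receptor programmes had 337 regions at 16 of 16 genes. In WT eTreg 8 were called higher, among them regions at Tbx21, Rora, Maf, Id2 and Runx3, and 13 lower, at Bach2, Bcl6, Irf4, Klf2 and Foxo1 (6.23%, against 3.44% of all regions). In FntbKO 6 were called higher, at Rora, Maf, Bach2 and Runx3, and 2 lower, at Bach2 and Klf2 (2.37%, against 1.36%). T-bet, the product of Tbx21, is a known regulator of Cxcr3. A region in Tbx21 (chr11:97103819-97104494) rose by a log2 fold of 1.70 in WT eTreg (SE 0.36, edgeR adjusted p = 0.00906). No Tbx21 region was called between FntbKO eTreg and FntbKO cTreg, and the part of Tbx21 in the Cxcr3 result was not tested. Between the genotypes in cTreg 1 was called higher in FntbKO, at Prdm1, and 1 lower, at Maf (0.593%, close to the 0.568% of all regions). EdgeR called 0 of the 337 in eTreg and 0 for the interaction, with 59 and 14 at an unadjusted p under 0.05. Such a p was found for 12.2% and 4.07% of all tested regions.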

How the data were processed

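ATAC-seq counts per region were taken as deposited by the authors, as raw read counts for 77076 regions in 10 libraries. Per the submitters' processing notes, the tools were MACS2 2.1.1, bedtools, SAMtools, Picard 2.9.4 and Trimmomatic 0.36, with mm10 (GRCm38), and the aligner is not given in the sources used here. The share of even counts per library was 66.7% to 79.2%, so both mates of a read pair may have been counted. Coordinates are printed as in the table, whose counting from 0 or 1 is not stated. Regions were given to genes by GRCm38 protein-coding spans, as described with the results, and a region in several spans counts in the sum of each gene. Levels are CPM with TMM factors, set separately for regions and for gene sums. Regions passing filterByExpr were tested with edgeR 4.0.16 (quasi-likelihood, R 4.3.3), with 1 fit of all 4 groups and 6 residual degrees of freedom, and Benjamini-Hochberg adjustment over 76216 regions or 15899 genes. The SE printed with an edgeR log2 fold was derived from the test, as the absolute log2 fold divided by the square root of its F statistic. DESeq2 1.42.0 and limma 3.58.1 (voom) were alternatives, beside other scalings, filters, halved counts, a replicate block, left-out libraries and narrower distances. The scripts were checked on simulated data.

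Named regions were those called in any comparison and, for each receptor, the one with the highest mean CPM, the one at the start site and, where none was called, the one with the smallest unadjusted p. Others are said to be chosen after their values were seen. The receptors and all gene lists were chosen with earlier results of these data known. Marker lists not described with the results gave these calls: CD4 T cell genes (12 regions) had 0 by edgeR in every comparison, with up to 2 at an unadjusted p under 0.05 in each. CD8 T or NK genes had 3 of 34 regions lower in WT eTreg (8.82%) and erythroid genes 1 of 6 lower (16.7%). Dendritic genes had 1 of 26 higher and 2 lower there (11.5%), with 1 lower in FntbKO cTreg (3.85%). Myeloid genes had 4 of 21 regions higher in WT eTreg (19.0%). B cell genes had 0 of 14 called by edgeR, with up to 3 at an unadjusted p under 0.05 in each comparison. Treg genes had 5 of 95 higher and 1 lower in WT eTreg (6.32%), 1 higher in FntbKO eTreg (1.05%) and 1 lower in FntbKO cTreg (1.05%). Over all tested regions 3.44% were called in the WT subset comparison, 1.36% in the FntbKO one and 0.568% between genotypes in cTreg. An unadjusted p under 0.05 was reached by 18.0%, 15.3% and 12.4% of them in these comparisons. It was reached by 12.2% between genotypes in eTreg and by 4.07% for the interaction. Some genes of these lists and of the most alike genes are not reported here by name.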

Additional observations from a re-analysis of the deposited data

How the results depend on the processing

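No called value changed its direction under any alternative run (0 of 160 alternative values of the 8 called receptor values), and 49 of the 160 lost the call. Of 2605 alternative values of the 132 uncalled ones, 107 changed sign and 27 became called. Receptor regions called between WT eTreg and cTreg (2) numbered 0 to 4 when 1 library was left out, 1 with limma-voom, 4 with halved counts, 4 with only the groups compared in the fit, 5 when WT cTreg 2 and FntbKO cTreg 1 were both left out, and 0 with regions overlapping the span only. Calls over all regions moved too: 2619 became 427 to 3664 over left-out libraries, 2200 with limma-voom, 2997 of 64220 with halved counts and 4225 with both libraries left out. Between FntbKO eTreg and cTreg (1) they numbered 0 to 4 over left-out libraries, 2 with limma-voom, 2 with halved counts, 0 when both of those libraries were left out and 0 with spans only, while calls over all regions went from 1033 to between 5 and 2249 over left-out libraries and to 38 without both. Between the genotypes in cTreg (2) they numbered 0 to 2 over left-out libraries, 0 when both were left out, 1 with only the groups compared, 1 within 10 kb of the span and 1 with spans only, and calls over all regions went from 433 to between 41 and 723 over left-out libraries and to 43 without both. On summed regions the WT subset comparison (0) gave 0 to 1 over left-out libraries and 1 with DESeq2, limma-voom, both libraries left out or only the groups compared. The FntbKO subset comparison (1) gave 0 to 1, and 0 with total counts, both left out or only the groups compared. The cTreg genotype comparison (2) gave 0 to 2, 0 with both left out and 1 with only the groups compared. Except for the replicate block, the eTreg genotype comparison and the interaction had 0 receptor calls in all alternatives run. The cause of these differences was not tested. Same-numbered WT libraries of the 2 subsets had correlated deviations of 0.0317 to 0.165, with 1 of 3 pairs over 0.1. Differently numbered WT libraries of the 2 subsets had -0.130 to 0.0439. Among WT cTreg libraries WT eTreg 3 correlated best with WT cTreg 2. Whether the numbers pair the libraries is thus not settled, and the main fit has no block. Same-numbered FntbKO libraries had a single value of 0.180, since the 2 libraries of a group deviate from their mean by opposite amounts. Same-numbered cTreg libraries of the 2 genotypes had 0.115 and 0.141. With the replicate block, called receptor regions were 4 in the WT subset and 3 in the FntbKO subset comparison, while calls over all regions rose to 4141, 2480, 990 and 655. Called receptors on summed regions were 1 in the WT subset, 4 in the cTreg and 2 in the eTreg genotype comparison. Over all 15899 genes the block gave 1045 calls in the WT subset, 846 in the FntbKO subset, 1107 in the cTreg genotype and 670 in the eTreg genotype comparison. Without the block, calls over all genes in the WT subset comparison went from 494 to 584 with DESeq2 and 514 with limma-voom. With only the groups compared they were 484 there, 312 in the FntbKO subset and 134 in the cTreg genotype comparison. Totals of 5058328 to 15328775 counts limit regions of low CPM most, such as those at Ccr6 and Ccr2 with under 30 counts in a WT group.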
